A study of Mus musculus with 30 samples.

Results

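Mouse C2C12 myotubes given D-galactose (Dgal, 3 libraries) were compared with myotubes given vehicle (3 libraries), 6 of the 30 libraries in the series, across 12184 expressed genes of the 16025 in the table. C2C12 is an established mouse myoblast line whose cells stop dividing, fuse and form multinucleated muscle fibres in culture. Dgal cultures received the sugar at 20 mg/mL for 24 h without any ginseng preparation, and vehicle cultures received neither. In the other 24 libraries the cells first had 12 h of a water extract of Korean Red Ginseng (RGW, 100 µg/mL), a fraction with its saponins (SFr, 100 µg/mL), a fraction without them (NSFr, 100 µg/mL) or ginsenoside Rb2, a single saponin (20 µM), with the same sugar afterwards in RGW_Dgal, SFr_Dgal, NSFr_Dgal and Rb2_Dgal and without it in the 4 groups named for the pretreatment alone. All groups share a single cell line, no group received another sugar at that concentration, and the replicates are called biological in the series' design text without a statement of how the cultures were separated. If they were not separate cultures, the p-values measure only the spread between these libraries.

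D-galactose is a sugar that cells turn into glucose phosphate through the Leloir pathway, which galactokinase opens. In excess it can be reduced by aldose reductases to a sugar alcohol or oxidised, and long exposure serves as an experimental model of ageing. Muscle cells take up hexoses through facilitative transporters, store glucose as glycogen and burn it by glycolysis. Their contractile machine is a repeat of thick myosin filaments and thin actin filaments anchored at Z-discs.

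The 6 libraries held 22209306 to 29139059 counts each, so that 3 counts corresponded to 0.104 to 0.134 CPM, a gene's count scaled by its library's total and TMM factor. Myotube markers were abundant in every library: the muscle actin gene Acta1 had 7104, 7540 and 7284 CPM in Dgal and 6696, 6608 and 6793 CPM in vehicle, and the myogenic factor Myog had 1208, 1312 and 1223 CPM in Dgal and 1186, 1141 and 1106 CPM in vehicle. Between 1.32% and 1.68% of counts in Dgal came from mitochondrially encoded genes and between 0.727% and 1.14% in vehicle. Vehicle replicate 1 stood furthest from the other libraries of its group, at 11.2 and 9.90 times the chi-square that sampling alone gives against the other vehicle libraries, while the 3 pairs of Dgal libraries lay between 2.64 and 6.28. Results that depend on that library are given with and without it. In bulk RNA, fewer cells of a type and less RNA per cell cannot be told apart.

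Of the 12184 genes, 3057 (25.1%) passed the test at an adjusted p under 0.05, 1455 (11.9%) higher and 1602 (13.1%) lower in Dgal. Cell division genes, of which 5 rose and 153 fell among 243 tested, and p53 targets, of which 18 rose and 3 fell among 34, are set aside from here on. The other 11909 genes gave 2880 calls, 1433 higher and 1447 lower. The changes were small: over all called genes the median absolute log2 fold change was 0.23, a factor of 1.175. Outside the set-aside lists, 59 genes rose and 15 fell at least 2-fold, and of these 3 and 0 had a mean of at least 5 CPM over the 6 libraries. The 3 were Rgcc, a regulator of cell cycle kinases and complement response, Slc16a6, a member of the monocarboxylate transporter family, and Arrdc3, an alpha-arrestin that guides the removal of surface receptors and transporters. Rgcc had 12.5, 13.4 and 13.7 CPM in Dgal and 4.32, 5.02 and 5.07 CPM in vehicle (1.47 ± 0.12, adjusted p = 4.22e-11), and Arrdc3 had 108, 123 and 118 CPM in Dgal and 52.9, 56.9 and 56.7 CPM in vehicle (1.07 ± 0.058, adjusted p = 5.9e-14). In both the groups lay wide apart, but the largest changes were named only among genes whose groups did not overlap. Over all 12184 genes, 4401 (36.1%) had groups that did not overlap. Rgcc lies at chr14:79288756-79301645, Slc16a6 at chr11:109450855-109473598 and Arrdc3 at chr13:80883384-80896042 (GRCm38), all of them protein-coding genes. Log2 fold changes are Dgal over vehicle, with their standard error, and come from edgeR's quasi-likelihood test adjusted over all 12184 genes. A gene named as risen or fallen kept its call in all 12 alternative settings unless the text says otherwise.

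**Figure D1:**
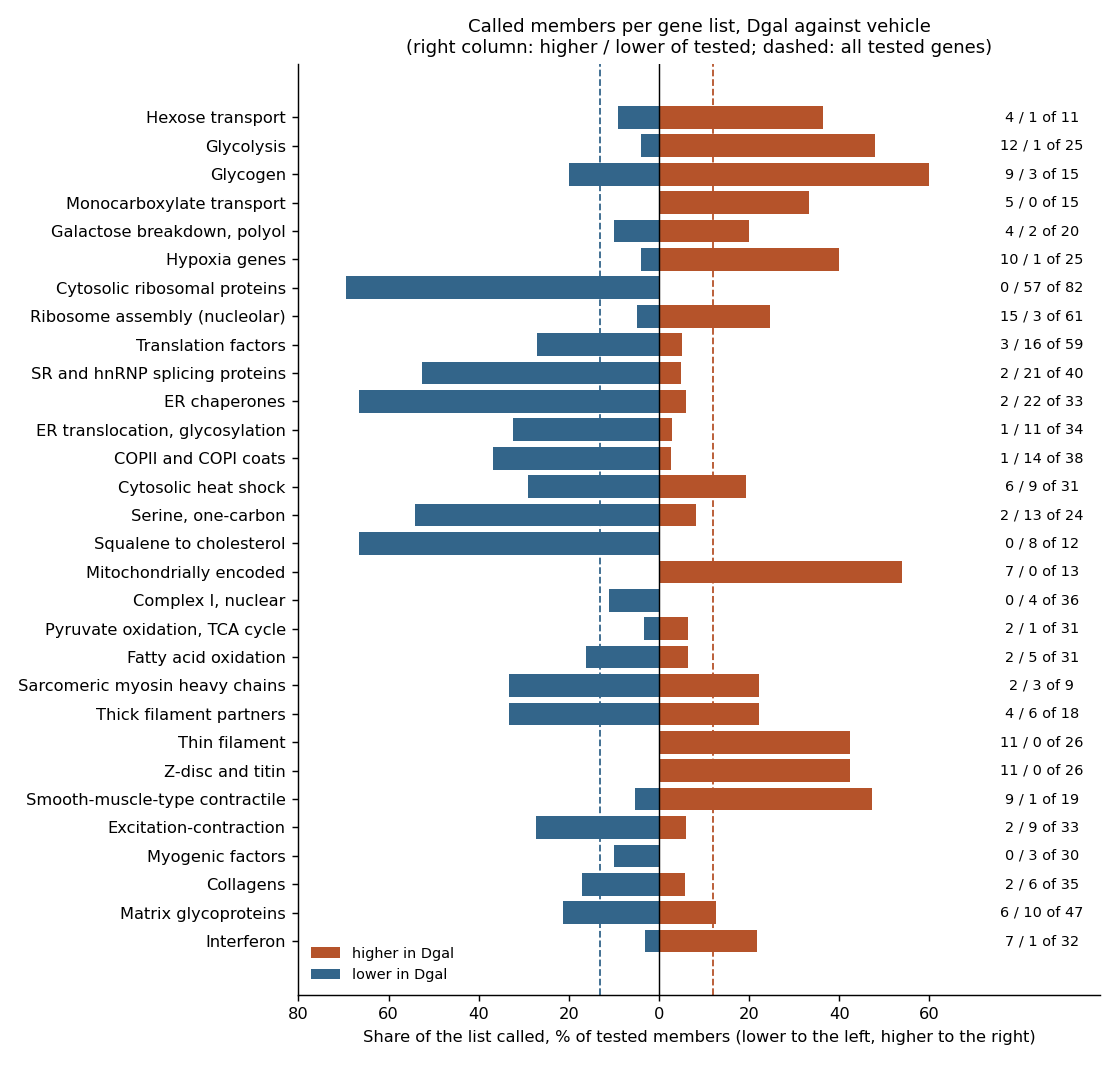
Share of tested members called higher (orange, to the right) or lower (blue, to the left) in Dgal against vehicle for 30 gene lists, in % of tested members, with the counts at the right. The dashed lines mark the shares over all 12184 genes, 11.9% higher and 13.1% lower. Cytosolic ribosomal proteins, ER chaperones and squalene-to-cholesterol enzymes reach furthest to the left, and glycogen genes furthest to the right.

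Genes of sugar entry and use were among those higher in Dgal. Of 11 hexose transport genes 4 rose and 1 fell, 45.5% beside 25.1% of all genes. Of 25 glycolysis genes 12 rose and 1 fell, 52%, with a median log2 fold change of 0.09 against -0.004 over all genes. Slc2a4, which encodes the insulin-responsive glucose transporter GLUT4 of muscle, had 7.10, 8.39 and 7.89 CPM in Dgal and 4.74, 5.19 and 4.56 CPM in vehicle. The groups did not overlap, and Slc2a4 rose by 0.69 ± 0.10 (adjusted p = 5.71e-06). Slc2a3, the GLUT3 gene, had 5.49, 5.71 and 5.95 CPM in Dgal against 3.24, 3.96 and 3.61 CPM in vehicle (0.67 ± 0.11), and Slc2a1, the GLUT1 gene, rose by 0.21 ± 0.045. Slc2a6 was higher by 0.14 ± 0.040, with its call kept in 9 of 12 alternatives (highest adjusted p 0.152, with a length and GC offset). Slc2a10 was the transporter gene called lower (-0.32 ± 0.12), with its call kept in 5 of 12 alternatives (highest adjusted p 0.158, without Dgal replicate 2), and without vehicle replicate 1 the list held 3 calls in place of 5.

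Within glycolysis the largest rises were in isoforms that are minor in mature muscle and in the enzymes that set the rate. Aldoc, the brain-type aldolase gene, had 12.3, 14.3 and 12.0 CPM in Dgal and 8.08, 7.29 and 6.53 CPM in vehicle. Aldoc rose by 0.81 ± 0.11 (adjusted p = 1.2e-06). Eno2, the neuronal enolase gene, rose by 0.49 ± 0.057. Pfkfb3, whose product makes the activator of phosphofructokinase, had 34.9, 37.6 and 35.6 CPM in Dgal and 26.2, 26.8 and 30.6 CPM in vehicle (0.37 ± 0.055). Hk2, the muscle hexokinase gene, had 161, 163 and 167 CPM in Dgal and 126, 134 and 131 CPM in vehicle (0.33 ± 0.041). Pkm, the pyruvate kinase gene of muscle, rose by 0.28 ± 0.033. The member that fell was Eno3, the muscle enolase gene (-0.15 ± 0.046), which kept its call in 8 of 12 alternatives (highest adjusted p 0.157, without vehicle replicate 1). Pdk4, which encodes a kinase that restrains pyruvate entry into the mitochondrion, rose by 0.26 ± 0.059.

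Genes of the galactose pathway itself gave calls that depended on the setting. The galactokinase gene Galk1 had 55.8, 46.5 and 52.9 CPM in Dgal and 63.5, 59.3 and 52.6 CPM in vehicle. The groups overlapped, and Galk1 was called lower (-0.18 ± 0.065, adjusted p = 0.0422) with the call kept in 6 of 12 alternatives (highest adjusted p 0.299, without vehicle replicate 1). Galt, the uridylyltransferase gene, had 2.90, 3.57 and 2.68 CPM in Dgal and 2.19, 2.49 and 2.06 CPM in vehicle (0.43 ± 0.16, adjusted p = 0.0446), and held its call in 3 of 12 alternatives (highest adjusted p 0.234, without Dgal replicate 2). Over the 20 tested genes of galactose breakdown and the polyol route 4 rose and 2 fell, 30% in all beside the 25.1% of all genes. Log2 fold changes in this list ran from -0.19 to 0.66, with a median of -0.01. The count was 2 with the fit limited to the 6 libraries and 3 with no filter on low counts or without Dgal replicate 1. Slc5a3, the inositol transporter gene that responds to high osmolarity, had a log2 fold change of 0.08 ± 0.12, and Slc6a6, the taurine transporter gene of the same response, fell by 0.32 ± 0.047 on the log2 scale.

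Glycogen genes rose together with the transporters. Of 15 tested genes 9 rose and 3 fell, 80% beside 25.1% of all genes, with a median log2 fold change of 0.17. Gys1, muscle glycogen synthase, had 350, 397 and 378 CPM in Dgal and 300.1, 309 and 309 CPM in vehicle, with no overlap (0.29 ± 0.041, adjusted p = 1.79e-06). Ppp1r3c, which targets a phosphatase to glycogen and turns the synthase on, rose by 0.56 ± 0.14, and Epm2a, the glycogen phosphatase laforin, by 0.47 ± 0.078. On the breakdown side Pygm, muscle glycogen phosphorylase, fell by 0.13 ± 0.034 on the log2 scale. Pygl, the liver phosphorylase gene, went the other way (0.59 ± 0.22) at 1.52, 1.83 and 1.13 CPM in Dgal and 0.940, 1.05 and 0.946 CPM in vehicle. The call of Pygl held in 3 of 12 alternatives (highest adjusted p 0.252, without Dgal replicate 2). With the fit limited to the 6 libraries, or without Dgal replicate 2 or vehicle replicate 2, 7 of the glycogen genes were called in place of 12.

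Monocarboxylate transporters and genes known from the response to low oxygen gave more rises than falls. Slc16a6 had 13.1, 14.8 and 14.8 CPM in Dgal and 5.01, 6.62 and 6.02 CPM in vehicle (1.29 ± 0.086, adjusted p = 5.92e-13). Of the 15 genes of the monocarboxylate group 5 rose and 0 fell, 33.3% beside 25.1% of all genes. The other rises were Slc16a4 (0.39 ± 0.13), Slc16a11 (0.34 ± 0.097), Slc16a3, the lactate exporter gene (0.19 ± 0.048), and Slc16a1 (0.11 ± 0.040). Their calls were kept in 6, 10, 11 and 7 of 12 alternatives, with highest adjusted p-values of 0.113 for Slc16a4 without vehicle replicate 1, 0.0686 for Slc16a11 without Dgal replicate 2, and 0.0526 for Slc16a3 and 0.168 for Slc16a1 without vehicle replicate 2. The count was 2 without vehicle replicate 2, and 3 in the fit of the 6 libraries and without Dgal replicate 2, Dgal replicate 3 or vehicle replicate 1. Among 25 hypoxia genes 10 rose and 1 fell, 44% beside 25.1% of all genes. Adm, which encodes the vessel-dilating peptide adrenomedullin, had 9.47, 9.50 and 10.4 CPM in Dgal and 5.78, 5.61 and 4.94 CPM in vehicle (0.84 ± 0.096), and the surface carbonic anhydrase genes Car12 and Car9 rose by 0.67 ± 0.078 and 0.43 ± 0.067. Ndrg1 and Egln1, an oxygen sensor gene, each rose by 0.24.

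Ribosomal protein genes, which encode the fixed parts of the ribosome, were mostly lower: of 82 tested 57 were lower and 0 higher. That was 69.5% called, beside 25.1% of all genes, and 80 members had a log2 fold change below 0, with a median of -0.25. Their summed level was 28959, 26985 and 27193 CPM in Dgal and 35344, 31923 and 30270 CPM in vehicle. The sums did not overlap, although vehicle replicate 1 was the highest of the 6 and the spread among the vehicle libraries was wide. Without vehicle replicate 1 the count of called members was 17, without Dgal replicate 2 it was 28 and without Dgal replicate 3 it was 30, while the list's median stayed between -0.29 and -0.17 over all 12 alternatives. Ribosomal protein genes have many processed pseudogenes, and RSEM divides reads between such copies, so single members are uncertain.

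Among the members that kept their call under all alternatives, Rpl10a had 314, 298 and 302 CPM in Dgal and 450, 405 and 363 CPM in vehicle (-0.42 ± 0.066, adjusted p = 4.11e-05). Rps15a fell by 0.38 ± 0.094 on the log2 scale. Rpl22l1, a paralog of Rpl22, had 29.6, 17.9 and 21.2 CPM in Dgal and 39.3, 36.4 and 32.8 CPM in vehicle (-0.67 ± 0.16), and lost its call only in the fit of the 6 libraries (adjusted p = 0.0671). Rpl3l, the striated muscle paralog of Rpl3, was listed at 0.447, 0.625 and 0.194 CPM in Dgal and 0.348, 0.253 and 0.258 CPM in vehicle and was not called. The elongation factor gene Eef1a1, which brings aminoacyl-tRNA to the ribosome, fell by 0.23 ± 0.036. Of 59 translation factor genes 16 fell and 3 rose, 32.2% beside 25.1% of all genes. Rps6kb1 and Eif4ebp2, which act downstream of the growth kinase mTOR, fell by 0.27 ± 0.038 and by 0.28 ± 0.040.

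Genes of ribosome assembly in the nucleolus did not fall with the ribosomal proteins. Of 61 tested 15 rose and 3 fell, 29.5% beside 25.1% of all genes, with a median log2 fold change of 0.06. Polr1b, a subunit of RNA polymerase I, had 29.2, 28.2 and 28.0 CPM in Dgal and 21.9, 23.8 and 22.4 CPM in vehicle (0.33 ± 0.056, adjusted p = 5.08e-05). Mybbp1a, a nucleolar MYB-binding protein gene, rose by 0.25 ± 0.032, Wdr75 by 0.23 ± 0.040 and Polr1a, the largest subunit of that polymerase, by 0.23 ± 0.058. The promoter windows of both groups were alike in a sequence: CCGGAAG, the core bound by ETS family factors, searched on both strands, stood in 37.7% of 61 ribosomal protein promoters, 38.2% of 55 ribosome assembly promoters and 17.6% of the promoters of 9683 tested genes. These windows run from 250 bases before to 50 bases after the start of transcription, 300 bases in all, in RefSeq (GRCm38.p6).

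Splicing regulators were lower too. Of 40 genes for SR proteins and hnRNPs, which bind pre-mRNA and choose splice sites, 21 fell and 2 rose. That was 57.5% beside 25.1% of all genes, with a median log2 fold change of -0.10. Srsf1 had 96.6, 86.4 and 91.6 CPM in Dgal and 112, 116 and 118 CPM in vehicle (-0.33 ± 0.048), Srsf2 fell by 0.32 ± 0.059 and Srsf5 fell by 0.32 ± 0.051 on the log2 scale. Hnrnpm, Hnrnpa0 and Hnrnph1 fell by 0.26 to 0.28, and Hnrnpa0 lost its call in 1 of 12 alternatives (adjusted p = 0.0588, without vehicle replicate 1). Between 16 and 23 members were called over the 12 alternatives.

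Genes of the secretory pathway were lower from the entry of new proteins into the ER to the coats of the vesicles that carry them out. ER chaperones, which fold proteins and form their disulphide bonds, gave 22 falls and 2 rises among 33 genes. That was 72.7% beside 25.1% of all genes, with a median log2 fold change of -0.20. In all 12 alternatives 19 to 26 members were called. Translocation and glycosylation genes gave 11 falls and 1 rise among 34, genes of ER-associated degradation and the unfolded protein response 11 falls and 1 rise among 26, and COPII and COPI coat genes 14 falls and 1 rise among 38. In that order 35.3%, 46.2% and 39.5% of members were called, beside 25.1% of all genes. The count for degradation and the unfolded protein response was 4 in the fit of the 6 libraries and 7 without vehicle replicate 1 or vehicle replicate 2.

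Serpinh1, the collagen chaperone HSP47, had 1041, 969 and 973 CPM in Dgal and 1392, 1371 and 1336 CPM in vehicle. The groups lay far apart relative to their spread, and Serpinh1 fell by 0.46 ± 0.033 on the log2 scale (adjusted p = 3.1e-12). Sdf2l1, which keeps the chaperone BiP active, had 12.8, 10.3 and 11.9 CPM in Dgal and 19.2, 17.2 and 15.9 CPM in vehicle (-0.59 ± 0.10). Manf, a secreted ER stress protein, fell by 0.34 ± 0.048, and Hspa5, the BiP gene, fell to 896, 831 and 874 CPM in Dgal against 1011, 952 and 1018 CPM in vehicle (-0.20 ± 0.040). Ddit3, the CHOP gene of ER stress, overlapped between the groups, with 22.1, 20.8 and 21.0 CPM in Dgal and 22, 26.4 and 20.8 CPM in vehicle (-0.11 ± 0.099, adjusted p = 0.438). Hsp90b1, the ER member of the HSP90 family, fell by 0.26 ± 0.038.

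Some of these genes share a known promoter element. The ER stress response element, CCAAT and CCACG with 9 bases of any kind between them, is the sequence through which NF-Y and ATF6 act on chaperone genes. Searched on both strands, it stood in 19 of the 9683 promoter windows, 0.196%. ER chaperones held 7 of the 19 among their 28 windows. All 7 of these genes were called lower, beside 22 of the 33 tested ER chaperones. Over the whole 19, 9 were called lower, the 7 chaperones among them, and 0 higher, beside 13.1% of all genes called lower. Whether the element had a part in these falls was not tested. The windows of 4 of the 7 are given here from RefSeq (GRCm38.p6), 5′ to 3′ on the gene's strand, with each match in capitals.
Hsp90b1 promoter (chr10:86705395-86705694, minus strand): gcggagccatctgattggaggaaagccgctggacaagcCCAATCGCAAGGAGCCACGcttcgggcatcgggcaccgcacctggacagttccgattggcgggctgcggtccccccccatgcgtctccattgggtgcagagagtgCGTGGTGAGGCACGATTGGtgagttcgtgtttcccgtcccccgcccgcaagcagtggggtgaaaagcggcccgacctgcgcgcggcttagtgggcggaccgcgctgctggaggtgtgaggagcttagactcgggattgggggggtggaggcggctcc
Dnajc3 promoter (chr14:118937682-118937981, plus strand): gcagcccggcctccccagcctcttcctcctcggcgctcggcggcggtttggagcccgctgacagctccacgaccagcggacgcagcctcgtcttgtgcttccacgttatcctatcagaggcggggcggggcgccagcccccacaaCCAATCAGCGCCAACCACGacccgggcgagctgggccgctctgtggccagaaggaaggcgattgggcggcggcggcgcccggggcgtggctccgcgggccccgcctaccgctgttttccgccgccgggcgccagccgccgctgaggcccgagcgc
Creld2 promoter (chr15:88819396-88819695, plus strand): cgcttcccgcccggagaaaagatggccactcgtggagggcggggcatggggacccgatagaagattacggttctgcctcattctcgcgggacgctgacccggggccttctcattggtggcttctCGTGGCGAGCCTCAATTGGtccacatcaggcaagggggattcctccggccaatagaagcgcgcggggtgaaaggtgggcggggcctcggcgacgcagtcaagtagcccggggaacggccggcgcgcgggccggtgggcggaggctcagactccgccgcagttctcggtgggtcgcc
Pdia6 promoter (chr12:17266339-17266638, plus strand): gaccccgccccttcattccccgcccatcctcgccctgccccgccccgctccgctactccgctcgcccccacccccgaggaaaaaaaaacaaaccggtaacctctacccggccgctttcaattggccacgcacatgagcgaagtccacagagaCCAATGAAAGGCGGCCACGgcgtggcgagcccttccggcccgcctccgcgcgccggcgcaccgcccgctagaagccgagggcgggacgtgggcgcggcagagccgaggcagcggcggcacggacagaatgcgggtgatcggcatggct
In Hsp90b1 the element is present in both orientations, from 212 to 194 and from 107 to 89 bases before the start, and in Pdia6 it lies 98 to 80 bases before it. Creld2 had 36.4, 33.7 and 34.9 CPM in Dgal and 42.6, 40.5 and 39.3 CPM in vehicle (-0.22 ± 0.055). Dnajc3, a co-chaperone and inhibitor of the kinase PERK, fell by 0.25 ± 0.044, and Pdia6, a disulphide isomerase gene, fell by 0.22 ± 0.040. A match describes letters in the window and not occupancy by a factor.

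Cytosolic chaperones moved in both directions. Of 31 genes 6 rose and 9 fell, 48.4% beside 25.1% of all genes. Hspa8, the constitutive HSP70, had 1312, 1239 and 1281 CPM in Dgal and 1676, 1602 and 1650 CPM in vehicle (-0.36 ± 0.034, adjusted p = 7e-10). The small heat shock proteins of muscle, which guard the contractile filaments, went the other way. Hspb7 had 457, 549 and 496 CPM in Dgal and 338, 327 and 365 CPM in vehicle (0.54 ± 0.050), Hspb8 rose by 0.35 ± 0.036, Hspb6 by 0.36 ± 0.083 and Hspb1 by 0.30 ± 0.061.

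Serine synthesis and its one-carbon branch fell. Of 24 genes 13 fell and 2 rose, 62.5% beside 25.1% of all genes. All 12 alternatives called 12 to 15 members. The mitochondrial folate enzyme Aldh1l2 had 51.7, 50.3 and 57.5 CPM in Dgal and 79.4, 105 and 92.3 CPM in vehicle (-0.79 ± 0.087, adjusted p = 3.95e-07). Pck2, mitochondrial phosphoenolpyruvate carboxykinase, had 45.7, 40.7 and 45.6 CPM in Dgal and 69.7, 73.3 and 74.4 CPM in vehicle (-0.72 ± 0.076). Both were among the largest falls, which were chosen with groups that did not overlap. The 3 enzymes that make serine from a glycolytic intermediate were all lower: Psat1 fell by 0.51 ± 0.046, Psph fell by 0.49 ± 0.096, and Phgdh, which opens the route, had 99.2, 90.6 and 94.1 CPM in Dgal and 122, 129 and 113 CPM in vehicle (-0.36 ± 0.052). Asns, asparagine synthetase, had 69.1, 62.5 and 67 CPM in Dgal and 90.1, 101 and 92.6 CPM in vehicle (-0.51 ± 0.058), and Gpt2, alanine transaminase, fell by 0.39 ± 0.043. Mthfd1, the cytosolic folate enzyme, rose by 0.25 ± 0.041.

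Several of the enzymes that fell are known targets of the transcription factor ATF4, whose own gene was not called. Atf4 had 353, 308 and 325 CPM in Dgal and 361, 358 and 331 CPM in vehicle (-0.09 ± 0.047, adjusted p = 0.151). Of 24 regulators and effectors of the same stress response 4 fell and 2 rose, 25% beside 25.1% of all genes, with 10 calls under a length and GC offset. Chac1, a glutathione-degrading enzyme, fell by 0.42 ± 0.10 and Atf5 fell by 0.40 ± 0.051, while Atf3 had 9.96, 9.91 and 10.5 CPM in Dgal and 7.38, 7.5 and 7.65 CPM in vehicle (0.43 ± 0.098). The amino acid transporters Slc38a2 and Slc7a5 fell by 0.40 ± 0.036 and 0.26 ± 0.044, and Slc43a2, a facilitative transporter of large neutral amino acids, rose by 0.42 ± 0.043.

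The core of the element that ATF4 binds with C/EBP partners is TGATG followed by any base and AA. On both strands it stood in 2.21% of the 9683 promoter windows and in 4 of 20 windows of the serine and one-carbon list, 3 of them of genes called lower. Over all 214 genes with a match 28 were called higher and 28 lower. The windows of Pck2, Asns and Pycr1 are shown as the ones behind that count (RefSeq, GRCm38.p6), with the match in capitals.
Pck2 promoter (chr14:55540016-55540315, plus strand): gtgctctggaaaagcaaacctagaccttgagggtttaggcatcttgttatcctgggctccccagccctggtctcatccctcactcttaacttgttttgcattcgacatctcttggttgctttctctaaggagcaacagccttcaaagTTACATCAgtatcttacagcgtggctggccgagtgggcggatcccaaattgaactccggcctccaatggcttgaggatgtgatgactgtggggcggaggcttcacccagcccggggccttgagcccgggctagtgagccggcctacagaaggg
Asns promoter (chr6:7693160-7693459, minus strand): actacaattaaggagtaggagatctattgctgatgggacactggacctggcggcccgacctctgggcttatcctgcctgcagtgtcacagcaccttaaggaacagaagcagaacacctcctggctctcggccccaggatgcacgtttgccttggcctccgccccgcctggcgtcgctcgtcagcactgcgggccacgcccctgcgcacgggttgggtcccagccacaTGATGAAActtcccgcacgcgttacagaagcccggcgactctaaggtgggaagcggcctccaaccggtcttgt
Pycr1 promoter (chr11:120643699-120643998, minus strand): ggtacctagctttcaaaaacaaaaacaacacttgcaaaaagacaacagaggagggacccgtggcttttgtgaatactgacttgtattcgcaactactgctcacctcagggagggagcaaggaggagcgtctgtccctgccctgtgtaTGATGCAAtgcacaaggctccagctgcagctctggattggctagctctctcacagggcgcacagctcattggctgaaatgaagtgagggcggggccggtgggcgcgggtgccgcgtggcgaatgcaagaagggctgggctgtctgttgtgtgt
In Asns the match lies close to the start, 23 to 16 bases before it, and in Pck2 and Pycr1 it lies 103 to 96 bases before it. Pycr1, the proline synthesis enzyme, had 23.5, 20.9 and 26.1 CPM in Dgal and 27.7, 28.5 and 28.4 CPM in vehicle (-0.26 ± 0.067), with the call lost without Dgal replicate 2 (adjusted p = 0.0716).

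Sterol genes were lower by small amounts. Of 12 enzymes from squalene to cholesterol 8 fell and 0 rose, 66.7% beside 25.1% of all genes. The falls ran from Nsdhl at -0.28 ± 0.039 to Sqle, squalene epoxidase, at -0.13 ± 0.040. Sqle kept its call in 8 of 12 alternatives (highest adjusted p 0.178, without Dgal replicate 2). Nsdhl had 79.0, 74.3 and 77.5 CPM in Dgal and 92.1, 93.0 and 94.6 CPM in vehicle. Insig1, the sterol sensor that rises and falls with SREBP activity, had 105, 90.3 and 100.1 CPM in Dgal and 137, 138 and 136 CPM in vehicle (-0.47 ± 0.042, adjusted p = 3.2e-10). Without Dgal replicate 2 or vehicle replicate 1, the squalene-to-cholesterol list held 5 calls in place of 8.

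**Figure D2:**
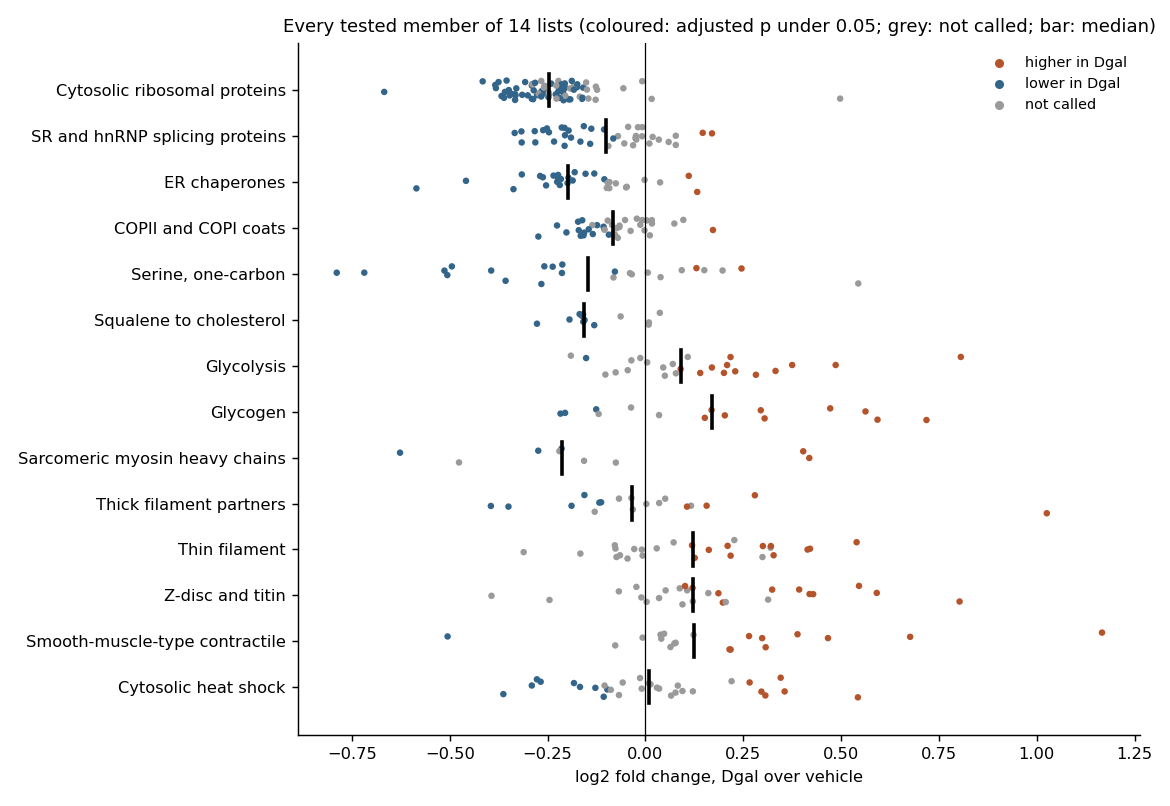
Log2 fold change, Dgal over vehicle, of every tested member of 14 lists; each point is a gene, coloured where the adjusted p was under 0.05, and the black bar is the list's median. Ribosomal proteins and ER chaperones lie almost wholly left of 0, with medians of -0.25 and -0.20, while the heat shock list spreads to both sides around a median of 0.009.

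Contractile genes were counted by compartment. Thin filament genes gave 11 rises and 0 falls among 26 (median 0.12), as did Z-disc and titin genes (11 and 0 among 26, median 0.12). The partners of the thick filament gave 4 rises and 6 falls among 18 and the sarcomeric myosin heavy chains 2 rises and 3 falls among 9. In that order 42.3%, 42.3%, 55.6% and 55.6% of members were called, beside 25.1% of all genes. Without Dgal replicate 2 or vehicle replicate 2 the heavy chains held 3 calls in place of 5, and without Dgal replicate 2, Dgal replicate 3 or vehicle replicate 1, or in the fit of the 6 libraries, the thick filament partners held 6 in place of 10. In the alternatives 10 to 14 thin filament genes and 9 to 13 Z-disc genes were called. Csrp3, a stretch-related LIM protein of the Z-disc, had 184, 179 and 170 CPM in Dgal and 104, 98.8 and 102 CPM in vehicle (0.80 ± 0.060, adjusted p = 8.05e-11). Ankrd2, another stretch-responsive gene, had 122, 124 and 127 CPM in Dgal and 90.3, 80.2 and 76.3 CPM in vehicle (0.59 ± 0.083). Nrap, which links actin to forming sarcomeres, rose by 0.55 ± 0.047, Klhl41, which stabilises nebulin, by 0.42 ± 0.036, and Actc1, the cardiac actin of immature fibres, by 0.33 ± 0.043. The giant genes of titin (Ttn) and nebulin (Neb) were not called: Neb had 1677, 2126 and 2234 CPM in Dgal and 2208, 3151 and 2133 CPM in vehicle, where vehicle replicate 2 stood apart.

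Myosin heavy chain genes, which set the speed of a fibre, moved in opposite directions. Myh3, the embryonic form, had 2706, 2605 and 2832 CPM in Dgal and 4068, 4337 and 4171 CPM in vehicle (-0.63 ± 0.044, adjusted p = 1.91e-12). Myh4, the fast IIb form, had 1488, 1496 and 1527 CPM in Dgal and 1073, 1197 and 1142 CPM in vehicle (0.40 ± 0.057, adjusted p = 5.2e-06). Both genes separated the groups completely, on opposite sides. Myh1, the IIx form, fell by 0.21 ± 0.043. Myh2, the IIa form, was lower (-0.27 ± 0.077), with the call lost under 2 alternatives (highest adjusted p 0.0836, without vehicle replicate 2). The neonatal Myh8 (-0.16 ± 0.063, adjusted p = 0.0679) and the slow Myh7 (-0.08 ± 0.057, adjusted p = 0.352) overlapped between the groups, and Myh7b was higher (0.42 ± 0.13) in the main fit and in 7 of 12 alternatives (highest adjusted p 0.137, without vehicle replicate 1). Of the thick filament partners Mybpc1, the slow myosin-binding protein C, fell by 0.40 ± 0.060, Myom1, the M-band protein myomesin, fell by 0.35 ± 0.038, and Mybpc2, the fast form of the binding protein, rose by 0.28 ± 0.042. Near-identical stretches within the myosin and actin families leave the division of reads among members uncertain.

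**Figure D3:**
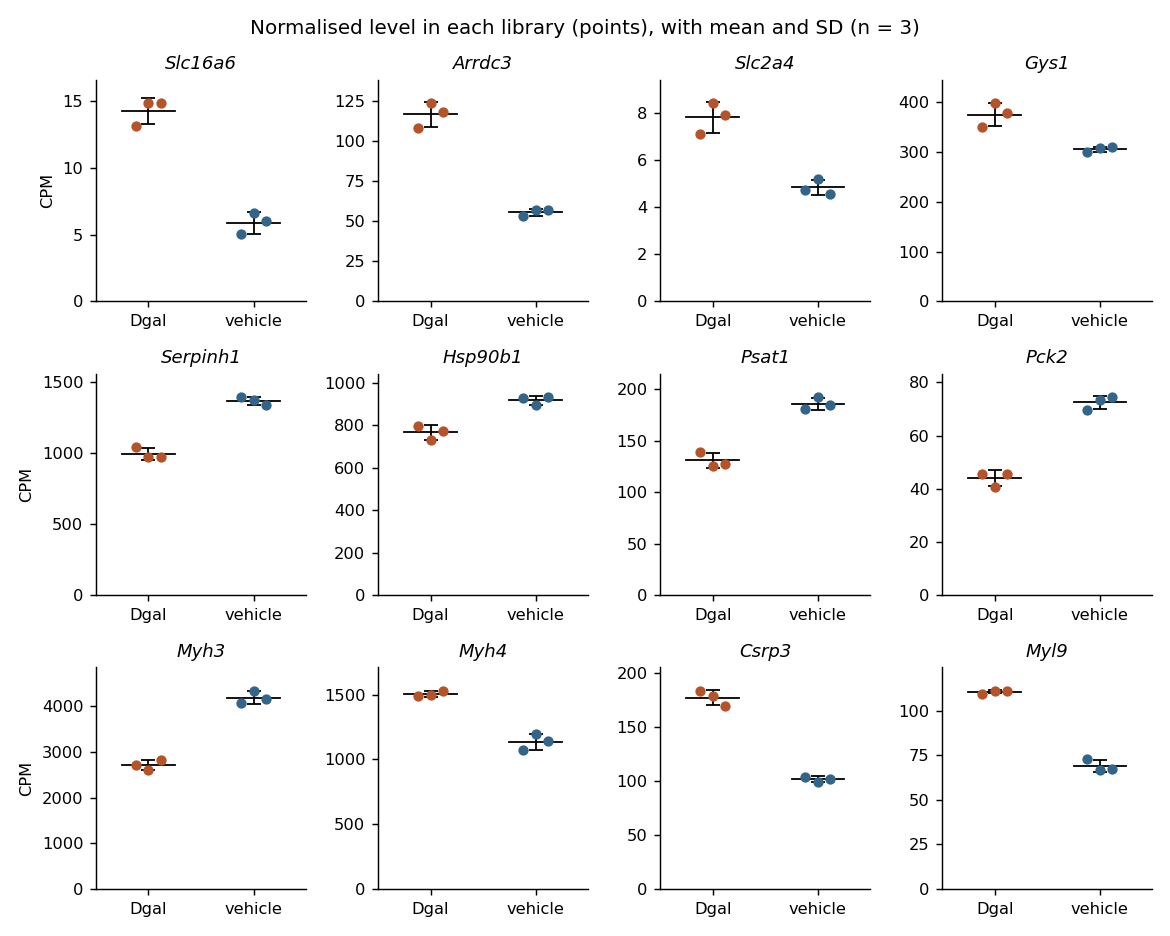
Normalised level (CPM, axes from 0) of 12 genes in each library, with Dgal at the left and vehicle at the right of each panel; points are libraries, the bar is the mean and the whisker the SD (n = 3). In all 12 panels the groups do not overlap, as in 36.1% of all 12184 tested genes. Myh3 lies between 2605 and 2832 CPM in Dgal and between 4068 and 4337 CPM in vehicle, and Myh4 is the other way round.

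Contractile genes typical of smooth muscle and of early myogenesis rose with the thin filament. Of 19 tested 9 rose and 1 fell (median 0.12), 52.6% beside 25.1% of all genes, and 9 to 11 were called in every alternative. Myl9, the regulatory light chain of non-sarcomeric myosin, had 110, 111 and 111 CPM in Dgal and 73.0, 66.8 and 67.4 CPM in vehicle (0.68 ± 0.041, adjusted p = 1.01e-13). Cnn1, calponin, had 5.99, 7.36 and 6.96 CPM in Dgal and 3.66, 2.45 and 2.84 CPM in vehicle (1.17 ± 0.14). Tagln, transgelin, rose by 0.47 ± 0.061 and Cnn2 by 0.31 ± 0.038, and Mylk, the kinase of the light chain, fell by 0.51 ± 0.098. Many of these genes are controlled by serum response factor through the CArG box, whose own gene Srf had a log2 fold change of 0.05 ± 0.048 and was not called. A CArG box was present in 1.35% of the 9683 promoter windows and in 5 of 17 windows of this list, 2 of them of genes called higher. Among all 131 genes with a box 17 were called higher and 17 lower. The windows of Myl9 and Cnn2, which hold those 2, and of Actc1 are shown (RefSeq, GRCm38.p6), with the box in capitals.
Myl9 promoter (chr2:156775214-156775513, plus strand): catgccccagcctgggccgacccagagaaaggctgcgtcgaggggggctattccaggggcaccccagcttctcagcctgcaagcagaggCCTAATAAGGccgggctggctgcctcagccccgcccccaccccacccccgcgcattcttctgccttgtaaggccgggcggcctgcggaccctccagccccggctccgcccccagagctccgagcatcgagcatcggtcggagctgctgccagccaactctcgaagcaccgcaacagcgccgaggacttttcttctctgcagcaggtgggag
Cnn2 promoter (chr10:79988350-79988649, plus strand): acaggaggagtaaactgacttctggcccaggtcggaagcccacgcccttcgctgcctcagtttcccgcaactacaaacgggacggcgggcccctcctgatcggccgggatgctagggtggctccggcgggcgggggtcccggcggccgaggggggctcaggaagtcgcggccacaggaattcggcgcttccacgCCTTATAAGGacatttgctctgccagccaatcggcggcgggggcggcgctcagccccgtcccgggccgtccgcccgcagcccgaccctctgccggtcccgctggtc
Actc1 promoter (chr2:114052826-114053125, minus strand): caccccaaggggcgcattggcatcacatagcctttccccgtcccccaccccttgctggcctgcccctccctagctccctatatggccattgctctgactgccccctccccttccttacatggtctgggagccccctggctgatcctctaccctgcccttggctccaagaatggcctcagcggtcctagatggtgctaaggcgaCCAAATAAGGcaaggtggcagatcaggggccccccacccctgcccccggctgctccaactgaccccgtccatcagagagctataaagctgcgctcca
The box lies 161 to 152 bases before the start in Myl9, 56 to 47 in Cnn2 and 47 to 38 in Actc1.

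Of 30 myogenic factors and cofactors 0 rose and 3 fell, 10.0% beside 25.1% of all genes. The count was 6 with a length and GC offset and 5 without vehicle replicate 1. Myod1 (-0.01 ± 0.040), Mef2c (-0.08 ± 0.045) and Myog (0.12 ± 0.047, adjusted p = 0.0501) were not called. Excitation-contraction genes, which release calcium on nerve firing, gave 9 falls and 2 rises among 33, 33.3% beside 25.1%. Stac3 stood at -0.32 ± 0.048 and Casq1, the calcium store protein calsequestrin, at -0.18 ± 0.039. Without Dgal replicate 2 or Dgal replicate 3 the list held 6 and 7 calls. Of 21 genes of muscle atrophy, ubiquitin ligases among them, 4 rose and 1 fell, 23.8% beside 25.1% of all genes. Without Dgal replicate 2 or vehicle replicate 1 these gave 3 calls in place of 5. Of the muscle ubiquitin ligases Fbxo32, known as atrogin-1, had 142, 148 and 150 CPM in Dgal and 117, 133 and 119 CPM in vehicle (0.25 ± 0.050) and Fbxo40 rose by 0.44 ± 0.069, while Trim63, known as MuRF1, overlapped between the groups (-0.06 ± 0.062, adjusted p = 0.518). In energy buffering Ckb, brain creatine kinase, rose by 0.30 ± 0.044 and Gamt, which makes creatine, fell by 0.42 ± 0.059. Prkaa2, the muscle catalytic subunit of AMP kinase, fell by 0.44 ± 0.068.

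All 13 mitochondrial messenger RNAs had a log2 fold change above 0, 7 of them called, with a median of 0.62. Their summed level was 13123, 14455 and 16905 CPM in Dgal and 7377, 8820 and 11543 CPM in vehicle. The groups did not overlap, and vehicle replicate 3 lay closest to Dgal. With the fit limited to the 6 libraries 1 member was called and without Dgal replicate 3 there were 4. mt-Nd6, the member read from the light strand, had 175, 169 and 203 CPM in Dgal and 117, 114 and 125 CPM in vehicle (0.62 ± 0.11, adjusted p = 0.000237), and kept its call throughout. Of 36 nuclear complex I subunits 0 rose and 4 fell, 11.1% beside 25.1%, and the count ran from 0 to 11 over the alternatives: 0 without Dgal replicate 2, Dgal replicate 3, vehicle replicate 1 or vehicle replicate 2, and 11 without vehicle replicate 3. Pyruvate oxidation and the citric acid cycle gave 2 rises and 1 fall among 31 genes, 9.68% beside 25.1%, with 5 calls without Dgal replicate 1, 7 with a length and GC offset and 1 in the fit of the 6 libraries.

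Redox genes gave a mixed picture. Of 30 NRF2 and glutathione genes 5 rose and 4 fell, 30% beside 25.1%, with 14 calls under a length and GC offset. Osgin1, an oxidative stress response gene, had 20.4, 22.2 and 22 CPM in Dgal and 14, 12.7 and 14.6 CPM in vehicle (0.64 ± 0.069), Hmox1, heme oxygenase 1, rose by 0.19 ± 0.044 and Mgst1, a membrane glutathione transferase, fell by 0.45 ± 0.11. Sod1, Sod2 and Nfe2l2, the NRF2 gene, overlapped between the groups and were not called, with log2 fold changes of -0.10 ± 0.077, 0.01 ± 0.037 and 0.04 ± 0.032. Of 16 metal and iron genes 3 rose and 4 fell, 43.75% beside 25.1%. Scara5, a receptor for ferritin, had 4.96, 6.56 and 5.64 CPM in Dgal and 10.7, 12.7 and 11 CPM in vehicle (-1.0 ± 0.097, adjusted p = 1.88e-09). The ferritin heavy chain Fth1 fell by 0.21 ± 0.044 and Slc40a1, the iron exporter ferroportin, fell by 0.33 ± 0.052. Besides Hmox1 the rises were in zinc transporter genes, Slc39a6 at 0.16 ± 0.043 and Slc30a1 at 0.22 ± 0.078, the second with its call kept in 6 of 12 alternatives (highest adjusted p 0.115, for Slc30a1 without vehicle replicate 3).

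Matrix and signal genes changed member by member. Among 35 collagen chains 2 rose and 6 fell, 22.9% beside 25.1%, with 14 calls under a length and GC offset. Col27a1 had 5.63, 5.09 and 5.83 CPM in Dgal and 2.47, 3.42 and 3.44 CPM in vehicle (0.85 ± 0.15), and Col23a1, a transmembrane collagen, had 19.5, 18.7 and 18.5 CPM in Dgal and 28.6, 28.9 and 31.1 CPM in vehicle (-0.64 ± 0.063). The major fibrillar chains Col1a1 (-0.03 ± 0.10) and Col3a1 (0.02 ± 0.036) were not called, although their chaperone Serpinh1 fell. Of 47 matrix glycoproteins 6 rose and 10 fell, 34.0% beside 25.1%. Ptn, the heparin-binding growth factor pleiotrophin, had 5.14, 4.37 and 4.39 CPM in Dgal and 7.91, 7.93 and 6.62 CPM in vehicle (-0.70 ± 0.11), and Prelp, a basement membrane anchor, fell by 0.47 ± 0.058. The transcription factor Snai2, known from connective tissue and myoblasts, had 33.2, 31.1 and 32.2 CPM in Dgal and 46.4, 49.7 and 49.5 CPM in vehicle (-0.59 ± 0.053).

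In the TGF-beta and activin family 5 genes rose and 8 fell among 37, 35.1% beside 25.1% of all genes. The ligand subunits Inhba and Inhbb rose by 0.24 ± 0.042 and 0.28 ± 0.044, while the receptor Tgfbr1 had 46.8, 42.0 and 45.5 CPM in Dgal and 55.5, 59.5 and 56.6 CPM in vehicle (-0.35 ± 0.051). The BMP antagonist Nog fell by 0.62 ± 0.13. Without Dgal replicate 2 the list held 8 calls in place of 13. Wnt pathway genes gave 5 rises and 7 falls among 35, 34.3% beside 25.1% of all genes. There were 6 calls without Dgal replicate 2, 7 without vehicle replicate 1 and 6 in the fit of the 6 libraries. Wnt10b, a ligand that favours muscle over fat, rose by 0.56 ± 0.14, and the secreted antagonist Sfrp2 had 58.9, 59.3 and 60.7 CPM in Dgal and 88.4, 85.8 and 80.9 CPM in vehicle (-0.51 ± 0.049). Interferon genes gave 7 rises and 1 fall among 32, with Irf9 at 0.37 ± 0.088, 25% beside 25.1% of all genes.

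Markers of other cell types were followed by their summed level. Of 15 tested markers of undifferentiated myoblasts 4 rose and 4 fell, 53.3% beside 25.1% of all genes, so single markers moved in both directions. Their summed level, weighted to the abundant markers, was 3748 to 3849 CPM in Dgal and 3813 to 3876 CPM in vehicle. It covers 17 genes in the table, none of them at 0 in all 6 libraries. Bone and cartilage markers summed to 1377 to 1402 CPM in Dgal and 1502 to 1607 CPM in vehicle, with 0 rises and 3 falls among 7 tested of 13 in the table and Acan at 0 counts throughout. Fibroblast markers summed to 1694 to 1797 CPM in Dgal and 1750 to 1877 CPM in vehicle, with 1 fall among 10 tested and 2 without Dgal replicate 2. Fat cell markers summed to 19.8 to 21.9 CPM in Dgal and 20.0 to 22.1 CPM in vehicle, with 1 rise among 3 tested and 0 without vehicle replicate 1, and with Cfd, Plin1, Lep and Retn at 0 counts in all 6 libraries. Of the tested bone and cartilage, fibroblast and fat cell markers 42.9%, 10% and 33.3% were called, in that order, beside 25.1% of all genes. The part that the cell mix and the lower cell division genes had in the results above was not tested.

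The same sugar in the 4 ginseng backgrounds gave a comparison that shares no library with Dgal or vehicle, only the model's estimate of spread. The mean effect over the backgrounds (RGW_Dgal against RGW, SFr_Dgal against SFr, NSFr_Dgal against NSFr and Rb2_Dgal against Rb2) called 5402 genes (44.3%), with 2592 higher and 2810 lower. Of the 3057 genes called in Dgal against vehicle 2604 were called in the same direction there, 85.2% of that list and 48.2% of the other, and 3 in the opposite direction. The same sign was found for 98.8% of the 3057. The median ratio of the effect after ginseng to that without it was 0.644 over the called genes, and Pearson's r across them was 0.91. These genes are not independent replicates and were chosen by the effect without ginseng, which by itself lowers the ratio, so no difference in size is read from it. The test of the difference between the 2 effects called 6 genes (0.0492%), 4 higher without ginseng (0.0328%) and 2 lower (0.0164%), among them Myh3 at -0.31 ± 0.049 (adjusted p = 0.00235), and none of the 6 without Dgal replicate 2.

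**Figure D4:**
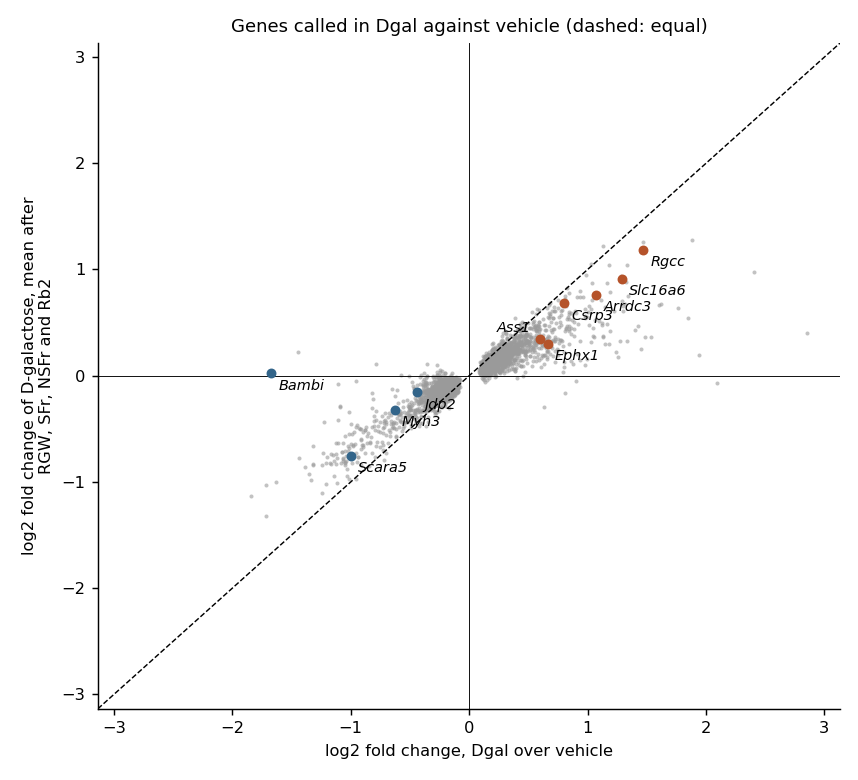
Log2 fold change of D-galactose without ginseng (x axis, Dgal over vehicle) against the mean over the 4 ginseng backgrounds (y axis) for the 3057 genes called without ginseng; the dashed line marks equal effects and coloured points are named genes. Most points lie between that line and the horizontal axis and Bambi, at -1.67 without ginseng, lies at 0.02 after it; Bambi had 0.223, 0.0446 and 0.156 CPM in Dgal and 0.488, 0.548 and 0.344 CPM in vehicle, and its highest adjusted p over the alternatives was 0.0513, without Dgal replicate 2.

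Slc16a6, Arrdc3, Csrp3, Myh4 and Serpinh1 kept their direction in each background. Over the RGW, SFr, NSFr and Rb2 backgrounds Slc16a6 had log2 fold changes of 0.72, 0.87, 0.92 and 1.15, and Arrdc3 had 0.64, 0.71, 0.77 and 0.92 in the same order. Csrp3 had 0.57, 0.87, 0.63 and 0.66, Myh4 had 0.41, 0.45, 0.40 and 0.47 and Serpinh1 had -0.31, -0.36, -0.30 and -0.36 in that order. Serine synthesis genes were less even. Phgdh had -0.05 with RGW, -0.31 with SFr, 0.04 with NSFr and -0.33 with Rb2, and Asns had -0.29, -0.51, -0.07 and -0.51 in the same order. Differences among the 4 backgrounds were not tested.

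By list, the medians over the backgrounds were -0.15 for ER chaperones with 26 falls and 1 rise, and -0.12 for ribosomal proteins with 54 falls and 0 rises. Glycogen genes gave 8 rises and 3 falls there, thin filament genes 19 rises and 0 falls, and Z-disc genes 20 rises and 1 fall. Over all genes 21.3% were called higher and 23.1% lower in these backgrounds. Nuclear complex I genes had a median of -0.003, with 0 rises and 2 falls, beside -0.14 in Dgal against vehicle and -0.05 there without vehicle replicate 1. The mean log2 CPM of ER chaperones was 6.86 to 6.95 in Dgal and 7.05 to 7.12 in vehicle, and 6.78 to 6.85 in SFr_Dgal and 6.95 to 6.98 in SFr. Mitochondrial messenger RNAs after SFr were 8.21 to 8.70 in SFr_Dgal and 8.36 to 8.65 in SFr, where the groups overlapped, and mt-Co1 had log2 fold changes of 0.31, -0.03, 0.31 and 0.54 in the RGW, SFr, NSFr and Rb2 backgrounds, beside 0.69 ± 0.17 in Dgal against vehicle (highest adjusted p 0.11, in the fit of the 6 libraries).

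**Figure D5:**
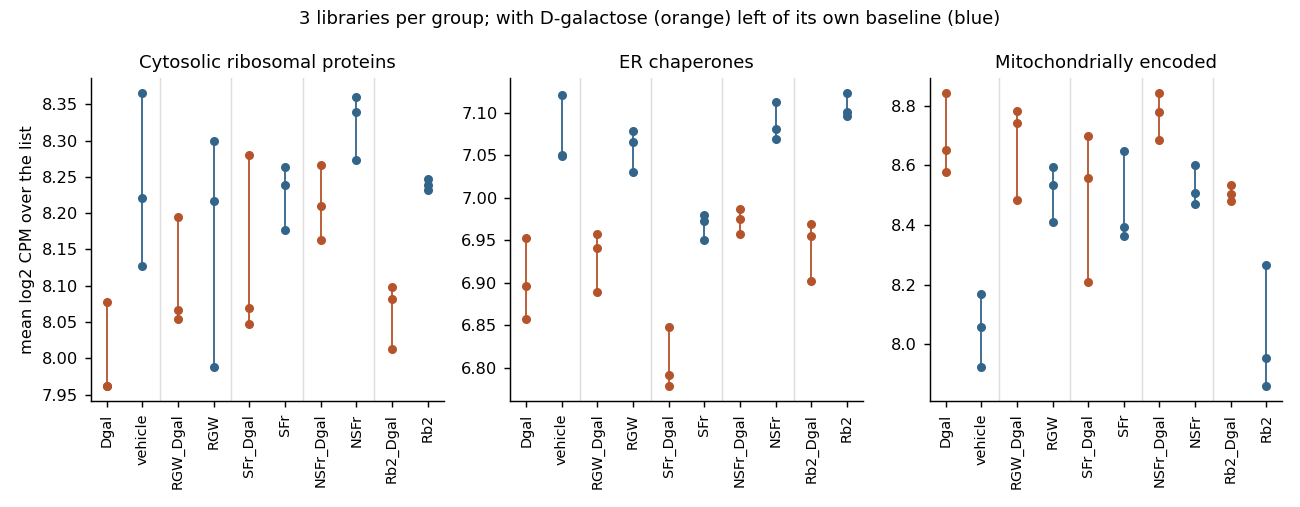
Mean log2 CPM over the members of 3 lists in each of the 30 libraries (points, joined within a group), with each D-galactose group (orange) left of its own baseline (blue). ER chaperones separate all 5 pairs of groups, while ribosomal proteins and mitochondrially encoded genes overlap after RGW and after SFr and separate the other 3 pairs.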

How the data were processed

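Poly(A) RNA of 30 C2C12 libraries was sequenced as strand-specific paired reads, per the labels' protocols. The authors deposited RSEM expected counts per gene, of which 19.4% were not whole and were rounded. The submitters' processing notes name RSEM 1.3.3, STAR 2.7.9a, Trim Galore 0.6.10, FastQC 0.11.9 and the builds GRCm38 and mm10. Neither the strand setting nor the annotation was given in the sources used here. Counts were scaled by TMM, filtered with filterByExpr (12184 genes kept) and fitted in a group model over all 30 libraries with edgeR 4.0.16 (quasi-likelihood F test, robust, Benjamini-Hochberg adjusted p under 0.05) in R 4.3.3. CPM are TMM-scaled. The standard error is the log2 fold change over the root of F. Replicate pairs all differed beyond sampling noise. On simulated counts of 12096 genes for Dgal against vehicle, 36% of 1.2-fold, 86% of 1.5-fold and 92% of 2-fold changes were recovered, with 10 false calls. DESeq2 1.42.0, RLE scaling, no filter, a replicate block, the 6 libraries alone, a length and GC offset and leaving out each replicate were the alternatives. Of 16025 symbols 16021 matched the GRCm38 annotation. Members of the gene lists known under other symbols are not analysed here. Lists, alternatives and named genes were chosen with earlier results of these data known. Named were the 15 largest rises and falls among called genes of at least 5 CPM whose groups did not overlap. Up to 6 called members per list, all members of lists of up to 15 and a panel were named too. Eno3, Phgdh, Rpl3l, Srf, Ttn and Neb were chosen after their values were seen.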

Additional observations from a re-analysis of the deposited data

Results flagged for a closer look

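The effect of D-galactose without ginseng differed from its mean effect in the 4 ginseng backgrounds for 6 of 12184 genes (0.0492%). By the test of the difference itself, 4 had a higher value without ginseng (0.0328%) and 2 a lower one (0.0164%). An unadjusted p under 0.05 was found for 1045 genes. A share of about 0.05 of all genes would reach it with no difference, so the 1045 are not read as different. Differences are the effect without ginseng minus the mean after ginseng, in log2 units, from edgeR's quasi-likelihood test with Benjamini-Hochberg adjustment.

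Ephx1, an epoxide hydrolase of detoxification, had a difference of 0.36 ± 0.056 (adjusted p = 0.00235), with effects of 0.66 without ginseng and 0.30 after it. Myh3, embryonic myosin, had a difference of -0.31 ± 0.049 (adjusted p = 0.00235), with -0.63 without ginseng and -0.32 after it, and -0.18 after SFr alone. Ass1, argininosuccinate synthase, had a difference of 0.25 ± 0.048 (adjusted p = 0.0210), with 0.60 and 0.35 in the same order. These 3 genes moved the same way in all backgrounds.

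Cd80, a costimulatory surface protein, had a difference of 0.21 ± 0.037 (adjusted p = 0.0103), with 0.33 without ginseng and 0.12 after it. Jdp2, a repressor of AP-1, had a difference of -0.28 ± 0.054 (adjusted p = 0.0210), with -0.44 and -0.16. Medag, known from fat cell differentiation, had a difference of 0.20 ± 0.040 (adjusted p = 0.0411), with 0.24 and 0.042, the second not called (adjusted p = 0.0561).

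Of the 35 alternatives, Ephx1 and Myh3 were called in 34, Cd80 in 33, Ass1 in 32, Jdp2 in 31 and Medag in 13. Without Dgal replicate 2 none of the 6 was called by edgeR: the adjusted p was 0.0668 for Ephx1 and Myh3, 0.123 for Cd80, 0.323 for Ass1, 0.136 for Jdp2 and 0.356 for Medag.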

How the results depend on the processing

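Dgal against vehicle called 3057 genes, and between 2104 (without Dgal replicate 2) and 3618 (length and GC offset) under the 12 alternatives, within 1.5 times of the reported count. Leaving out single replicates gave 2104 to 2787. The fit of the 6 libraries called 2320 genes, 2228 of them shared in direction, and DESeq2 called 2809. The length and GC offset, an alternative chosen after seeing the data, called 39.5% of its genes higher, beside 47.6%. The mean effect after ginseng called 5024 to 5845 genes, beside 5402. The difference between backgrounds moved most: 20 genes with DESeq2, 16 with the length and GC offset, and 0 (without Dgal replicate 2) to 11 (without Dgal replicate 1) when single replicates were left out, beside 6. The cause was not tested. With the replicate number as a block 3000 genes were called, 2958 of them shared, 5356 after ginseng and 6 for the difference. Deviations of same-numbered Dgal and vehicle libraries correlated at 0.054, -0.045 and -0.031, beside -0.067 to 0.096 for libraries of different number. No shift shared by number was seen. Whether cultures were handled in pairs cannot be read from these values. No named gene reversed its direction past the threshold. Members of near-identical gene families and genes under 1 CPM are the least certain at this depth.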

Other observations

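Ion transport genes, a list not given above, gave 7 rises and 7 falls among 36 tested, 38.9% beside 25.1% of all genes. The list may share members with the excitation-contraction genes, as both have a lowest log2 fold change of -0.53. Kcnj12, an inward rectifier channel, fell by 0.51 on the log2 scale, while Kcna7, a voltage-gated potassium channel of muscle, was higher by 0.87 (adjusted p = 0.0694 without Dgal replicate 3) and Slc4a3, an anion exchanger, by 0.51.

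Grouped by the letters that open the symbol, 220 families had at least 8 tested genes. Rpl (46 genes, median log2 fold change -0.25), Rps (40 genes, -0.23) and Srsf (10 genes, -0.20) had the lowest medians, and Wnt (10 genes, 0.26) and Abcb (8 genes, 0.18) were among the highest. Of 19 genes whose symbols open with Dusp 7 rose and 1 fell, 42.1% beside 25.1% of all genes.

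The 3 genes called in opposite directions without and after ginseng were Il1rl1, Mms19 and Myh2. Il1rl1, the receptor of interleukin 33, had 0.63 ± 0.18 without ginseng and -0.30 ± 0.086 after it, and the difference did not pass the test (adjusted p = 0.067). Without Dgal replicate 2 the call of Il1rl1 without ginseng was lost (adjusted p = 0.0762). Myh2 had -0.27 ± 0.077 and 0.10 ± 0.038 in the same order (adjusted p of the difference 0.146), and Mms19, which helps load iron-sulphur clusters, had 0.14 and -0.06 (adjusted p of the difference 0.197). Mms19 kept its call without ginseng in 7 of 12 alternatives (highest adjusted p 0.164, without vehicle replicate 1), and Myh2 in 10 of 12 (highest adjusted p 0.0836, without vehicle replicate 2).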
